A study of Caenorhabditis elegans with 2 samples.

Results

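The histone genes of the nematode Caenorhabditis elegans were taken as all protein-coding genes whose symbol begins with his-, which gave 72 genes among 19973 protein-coding genes on the 6 nuclear chromosomes. What was measured was where NHR-12, a nuclear hormone receptor, sat on the genome, by ChIP-seq, in which DNA bound to a protein is precipitated with it and sequenced. The receptor was fused to enhanced green fluorescent protein (eGFP-NHR-12). The strain was OP318, with the genotype unc-119(ed3) III; wgIs318, and the antibody field of the labels names nhr-12. The material was whole mixed-stage embryos of both sexes in 1 group with 2 biological replicates, the age of the embryos is labelled unknown, and all cells and stages were averaged. The tagged receptor came from an inserted transgene, and every library carried both the transgene and the unc-119 allele. There was no second condition, so the values describe 1 group and carry no test between groups, and what separated the replicates (culture or collection) is not stated.

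Histones are the proteins around which DNA is wound in nucleosomes. The core types H2A, H2B, H3 and H4 are made in bulk when DNA is copied, from genes that lie in clusters, often as divergent pairs that share the short stretch between their starts. Their messages usually end in a stem-loop instead of a poly(A) tail. H3.3 variants are deposited outside DNA replication, and H1 binds the linker between nucleosomes.

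By annotated product, the 72 genes held 17 H2A, 16 H2B, 15 H3 and 16 H4 genes, together 64 core genes. The others were 5 H3.3 or H3.3-like genes (his-69, his-70, his-71, his-72 and his-74), the H1 gene his-24, and 2 short genes with a histone domain (his-39 and his-73). Head-to-head pairs, with starts at most 1000 bp apart, held 62 of the 72 genes in 31 pairs, of which 16 joined H2A with H2B, 14 joined H3 with H4, and 1 joined H4 with H2A (his-67 and his-68). When starts within 10 kb of each other were chained, 14 clusters held 67 genes, and his-24, his-71, his-72, his-73 and his-74 stood alone. Translated from the RefSeq coding sequences, all 16 H4 genes encode the same 103 residues, all 15 H3 genes the same 136 residues, and 15 of 17 H2A genes the same 127 residues, while the 16 H2B genes encode 4 distinct proteins. his-72, an H3.3 gene, differs from the common H3 at 9 of 136 positions, his-71 at 8 and his-74 at 16. The longest coding sequence of each gene was translated, except at his-72, where the shortest was used.

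The value given for each gene is the largest signal of a region with its summit in the start window, which reached from 1000 bp before the gene's start to 200 bp after it. Signal is the authors' value per region on a scale that is not stated, and it is used only to describe and rank regions within a list. A peak below is a region of the thresholded list, and a candidate is a region of the longer list from which peaks were chosen. Depth and the precision of a signal are unknown, as no read counts were analysed here.

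NHR-12 peaks lay at 9 of the 72 histone genes, 12.5%, against 0.946% of all protein-coding genes. The 9 genes shared 5 of the 249 peaks, so they are not 9 separate observations. 4 of these peaks had their summit between the starts of a divergent core histone pair, and the fifth lay at his-72. Peaks between the starts were found at 4 of 31 histone pairs, 12.9%, against 2.58% of the 1745 head-to-head pairs of protein-coding genes. Candidates of any strength were near the background: 28 of 72 histone genes had one in the pooled list, 38.9%, where all protein-coding genes had 35.7%. The median pooled signal was 19.9 over the 28 histone genes with a candidate (from 8.67 to 55.7) and 11.1 over 7138 protein-coding genes.

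**Figure D1:**
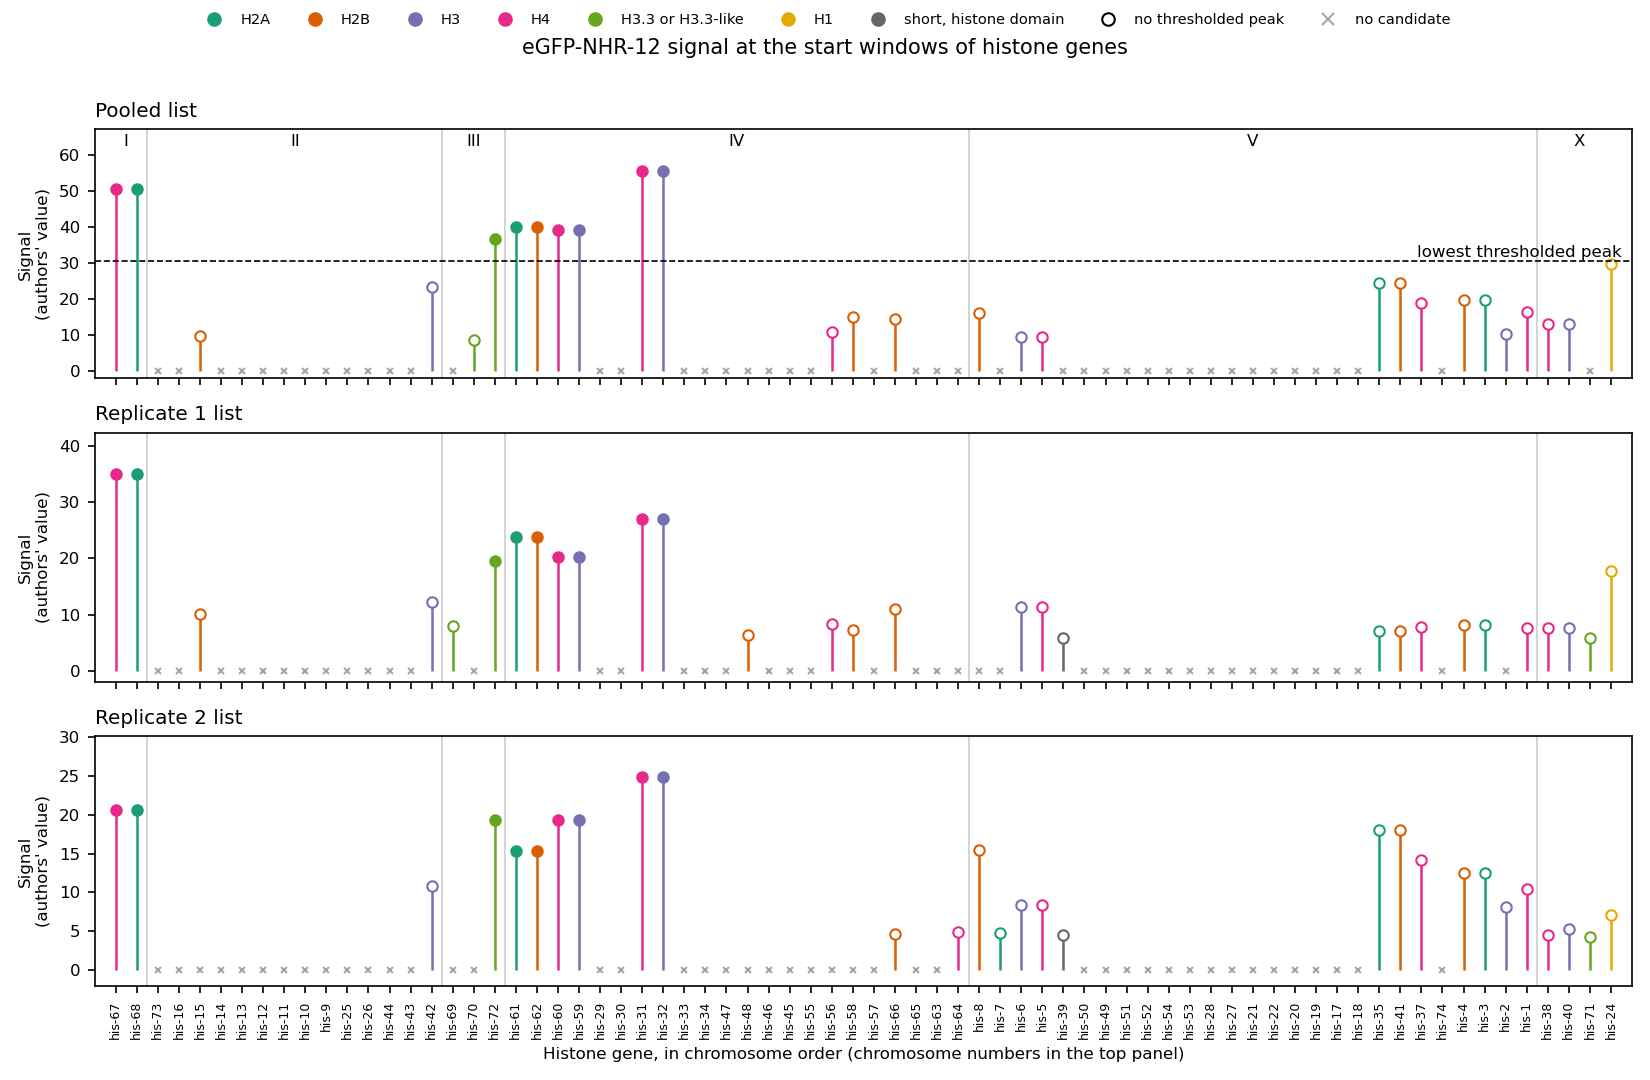
Signal of the strongest region in the start window (y axis, authors' value) for the 72 histone genes in chromosome order (x axis), in the pooled list and in each replicate's list. Filled points are genes with a thresholded peak, open points are candidates only, and crosses are genes without a candidate; the dashed line is the lowest signal in the thresholded list, 30.7. The 9 genes with a peak carry pooled signals from 36.7 to 55.7, and long runs of genes on chromosomes II, IV and V have no candidate.

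The sequences between starts are shown for the pairs on which the results turn, read from the RefSeq copy of WBcel235 (ce11), plus strand. They are the pairs his-31/his-32, his-61/his-62 and his-60/his-59, which had peaks, his-4/his-3, which had a weaker candidate, and his-29/his-30 and his-63/his-64, which had no region between their starts. Intervals longer than 300 bases are shown as their central 300. Capitals mark TATAAA (the TATA box letters), CCAAT (the CCAAT box letters), AGGTCA (a nuclear receptor half-site) and GGACAC on either strand; GGACAC was picked after these intervals had been read.
his-31/his-32: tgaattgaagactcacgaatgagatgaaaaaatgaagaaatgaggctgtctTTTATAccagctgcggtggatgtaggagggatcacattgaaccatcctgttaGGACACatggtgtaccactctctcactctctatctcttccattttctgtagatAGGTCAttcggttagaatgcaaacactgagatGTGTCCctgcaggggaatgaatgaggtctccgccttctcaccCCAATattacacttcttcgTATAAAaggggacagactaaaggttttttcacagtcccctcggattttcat
his-61/his-62: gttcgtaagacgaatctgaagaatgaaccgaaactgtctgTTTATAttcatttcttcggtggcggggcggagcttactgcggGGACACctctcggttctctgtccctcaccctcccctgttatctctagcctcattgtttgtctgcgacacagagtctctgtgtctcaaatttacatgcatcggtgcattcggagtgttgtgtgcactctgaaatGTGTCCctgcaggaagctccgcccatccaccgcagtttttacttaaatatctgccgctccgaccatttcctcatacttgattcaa
his-60/his-59: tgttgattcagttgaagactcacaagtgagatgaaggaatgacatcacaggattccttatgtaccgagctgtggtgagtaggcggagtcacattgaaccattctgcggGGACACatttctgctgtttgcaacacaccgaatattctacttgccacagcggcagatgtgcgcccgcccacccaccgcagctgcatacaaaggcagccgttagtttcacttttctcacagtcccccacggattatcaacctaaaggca
his-4/his-3: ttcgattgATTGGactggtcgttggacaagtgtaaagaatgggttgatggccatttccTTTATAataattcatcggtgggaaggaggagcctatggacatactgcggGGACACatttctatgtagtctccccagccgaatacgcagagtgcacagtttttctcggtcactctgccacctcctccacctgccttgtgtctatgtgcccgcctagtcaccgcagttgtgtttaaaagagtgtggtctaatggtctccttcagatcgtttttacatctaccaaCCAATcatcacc
his-29/his-30: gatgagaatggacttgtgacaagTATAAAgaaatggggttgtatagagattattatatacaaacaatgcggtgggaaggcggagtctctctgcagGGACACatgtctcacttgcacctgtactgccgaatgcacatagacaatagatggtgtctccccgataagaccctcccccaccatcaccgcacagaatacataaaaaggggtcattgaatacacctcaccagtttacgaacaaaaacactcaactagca
his-63/his-64: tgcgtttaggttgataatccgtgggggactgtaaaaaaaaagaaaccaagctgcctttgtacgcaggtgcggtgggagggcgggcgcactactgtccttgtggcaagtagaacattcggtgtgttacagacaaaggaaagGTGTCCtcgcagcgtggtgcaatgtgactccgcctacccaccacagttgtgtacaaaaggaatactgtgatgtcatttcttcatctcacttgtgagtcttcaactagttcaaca
They lie at chrIV:8333995-8334294, chrIV:7486232-7486531, chrIV:7487993-7488248, chrV:16040516-16040807, chrIV:8331413-8331665 and chrIV:11406862-11407115, in this order. Each lies between the annotated models of both genes of its pair, where their promoters lie. Most annotated starts of histone genes are coding starts, so any 5′ untranslated sequence falls within these intervals.

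The strongest peak at a histone gene was between his-31 (F17E9.12, H4) and his-32 (F17E9.10, H3), at chrIV:8333957-8334312. Its pooled signal was 55.7, rank 36 of the 28574 pooled candidates, and it measured 27.1 (rank 79 of 30000) in replicate 1 and 24.9 (rank 52 of 30000) in replicate 2. The pooled summit lay 9 bp left of the midpoint between the starts, which are separated by 321 bases, the replicate 1 summit 1 bp left of it and the replicate 2 summit 76 bp right of it. This pair is the middle one of 3 in its cluster. The outer pairs, his-29/his-30 and his-33/his-34 (each H2A with H2B), share an identical interval of 253 bases in opposite orientation, and neither had a region between its starts in any of the 3 lists.

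The cluster from his-61 to his-59 on chromosome IV had a peak at both of its pairs, so that all 4 of its genes, 1 of each core type, had a peak. Between his-61 (F55G1.10, H2A) and his-62 (F55G1.3, H2B), at chrIV:7486225-7486580, the pooled signal was 40.0 (rank 114), with 23.8 (rank 122) in replicate 1 and 15.4 (rank 295) in replicate 2. Between his-60 (F55G1.11, H4) and his-59 (F55G1.2, H3), at chrIV:7487943-7488298, it was 39.3 (rank 123), with 20.2 (rank 198) and 19.4 (rank 129). Pooled summits lay 22 bp and 0.5 bp right of the midpoints of intervals of 327 and 256 bases. A further candidate lay between the pairs, beyond the 3′ ends of the genes, with a pooled signal of 14.1 (rank 4986). It was weak in replicate 1, at 8.33 (rank 8512), and in replicate 2, at 15.2 (rank 311), it was close to the region between his-61 and his-62.

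**Figure D2:**
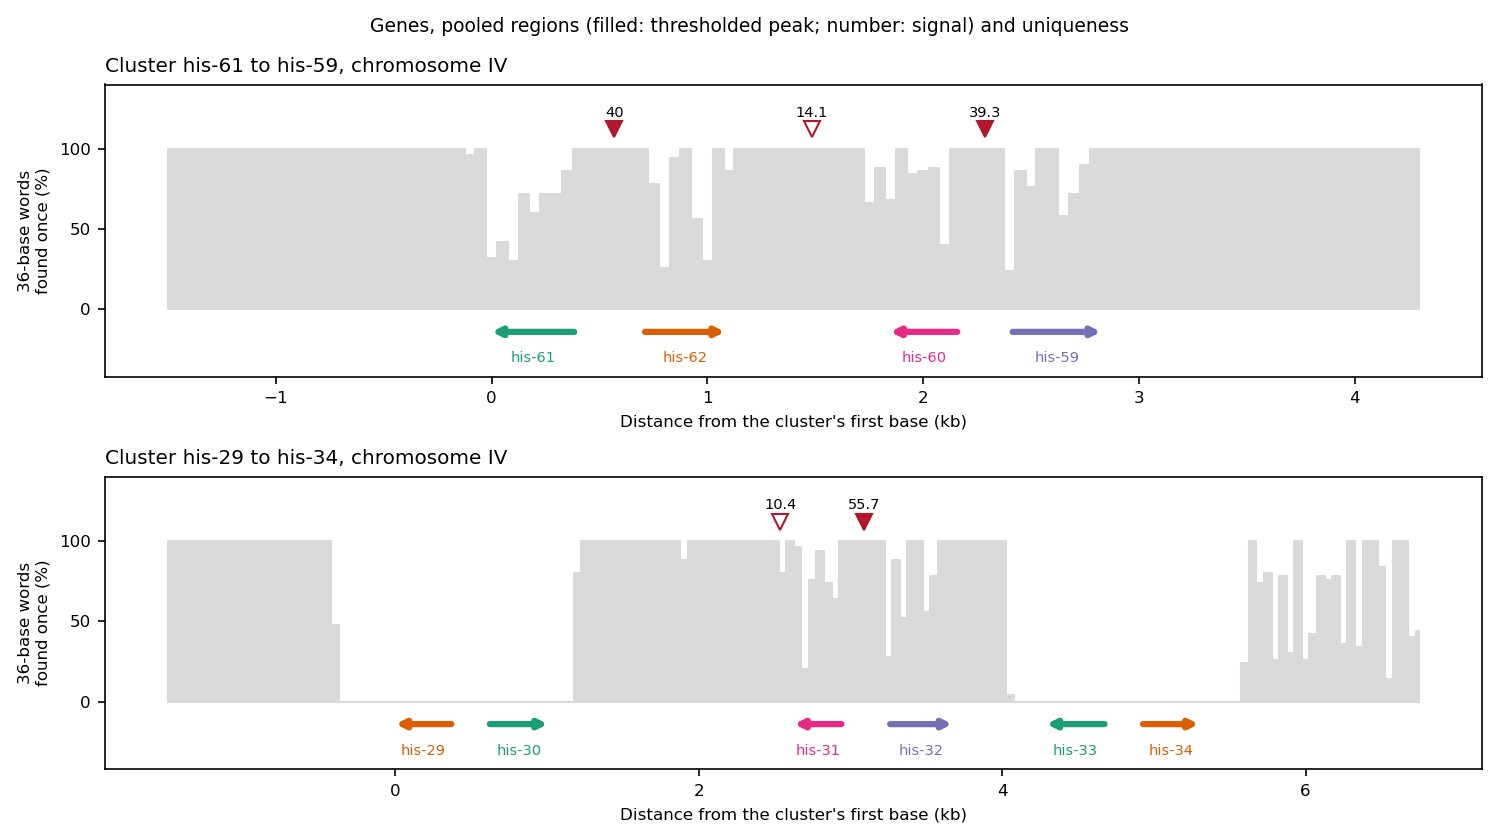
Maps of the 2 chromosome IV clusters with peaks: arrows are genes in the direction of transcription (teal H2A, orange H2B, violet H3, pink H4), triangles are the summits of pooled regions in start windows with their signal (filled for thresholded peaks), and the grey profile is the percentage of 36-base words that occur once in the genome (y axis) by distance from the cluster's first base (x axis, kb). In the lower map the peak of signal 55.7 stands over the unique middle pair, and the profile is at or near 0 over the outer pairs, which have none.

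The remaining paired peak was between his-67 (T23D8.5, H4) and his-68 (T23D8.6, H2A), which form a cluster of their own and the only pair of this make-up. The region spans chrI:9988803-9989158. Its pooled signal was 50.8 (rank 55), with 35.03 (rank 30) in replicate 1, the highest of any histone gene there, and 20.6 (rank 89) in replicate 2. The pooled and replicate 2 summits lay 33.5 bp right of the midpoint of the interval of 368 bases, and the replicate 1 summit 62.5 bp left of it. The nearest start of another gene, that of the Argonaute gene alg-5, was 821 bp from the pooled summit.

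his-72 (Y49E10.6) was the only histone gene outside the core types with a peak, at chrIII:12368829-12369184. Its pooled signal was 36.7 (rank 139), and it measured 19.4 in both replicates, at rank 223 in replicate 1 and rank 130 in replicate 2. The summit lay 43 bp inside the start of the longer annotated transcript and 843 bp upstream of the start of the shorter one. The replicate summits were 101 bp and 34 bp inside the longer transcript, and the nearest other start, that of the snoRNA gene Y49E10.36, was 463 bp from the pooled summit. The other H3.3 and H3.3-like genes had lower signals or no region. his-70 had a pooled candidate of signal 8.67 (rank 22816) and none in either replicate list. his-69 had a candidate of 7.97 in replicate 1 only, his-71 candidates of 5.81 and 4.26 in the replicate lists only, and his-74 none. Windows of his-69, his-71, his-72 and his-74 consisted only of unique 36-base words, and that of his-70 of 87.7% unique words.

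The H1 gene his-24 (M163.3) fell just outside the thresholded list. Its candidate had a pooled signal of 29.8 (rank 265), beside 30.7 for the weakest peak and 30.6 for the strongest region left out. It was uneven between replicates, with 17.7 (rank 332) in replicate 1 and 7.06 (rank 8368) in replicate 2. The summit was 26 bp upstream of the gene's start and 80 bp from that of the non-coding RNA gene M163.19. The 151 bases centred on the summits of the regions at his-72 (chrIII:12368932-12369082, minus strand) and his-24 (chrX:14489993-14490143, plus strand) are shown because, among the regions at histone genes, they are the nearest to the threshold on either side; capitals mark the same letters as above.
his-72: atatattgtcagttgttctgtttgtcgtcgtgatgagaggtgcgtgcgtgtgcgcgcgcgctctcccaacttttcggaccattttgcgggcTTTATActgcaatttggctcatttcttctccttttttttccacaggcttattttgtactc
his-24: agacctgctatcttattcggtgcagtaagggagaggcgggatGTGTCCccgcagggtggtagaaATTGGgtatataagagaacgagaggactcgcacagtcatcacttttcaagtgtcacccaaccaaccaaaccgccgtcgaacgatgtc

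The other candidates had lower signals and most lay outside the interval between a pair's starts. his-35 (C50F4.13, H2A) and his-41 (C50F4.5, H2B) shared a candidate of signal 24.5 (rank 480) whose summit was 69 bp inside his-41. It was a strong region in replicate 2, at 18.0 (rank 164), and a weak one in replicate 1, at 7.05 (rank 13833). his-42, an H3 gene in no pair, had 23.3 with its summit 690 bp upstream of the start and 101 bp from the start of a non-coding RNA gene. Of the 36-base words in that region, 34.9% were unique. The other gene start nearest to the replicate summits, at 47 and 101 bp, was that of the small nuclear RNA gene C47F8.9. his-37, an unpaired H4 gene, had 18.9 with its summit 107 bp upstream, and ranked 10365 in replicate 1 and 404 in replicate 2. Between starts lay the candidates of his-4/his-3 (H2B and H2A), at 19.9 (rank 1124), and of his-6/his-5 (H3 and H4), at 9.61 (rank 17850). The region between his-4 and his-3 ranked 9201 in replicate 1 and 744 in replicate 2.

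his-8, an H2B gene, had 16.1 in the pooled list and was uneven between replicates, with 15.5 (rank 291) in replicate 2, beside 15.4 for the peak between his-61 and his-62 there, and no candidate in replicate 1. The remaining histone genes with a pooled candidate were his-1 at 16.3, his-58 at 15.1, his-66 at 14.5, his-38 and his-40 together at 13.2, his-56 at 10.8, his-2 at 10.4 and his-15 at 9.70. Among these, his-1, his-8, his-58, his-66, his-56 and his-15 had their summit 695 to 919 bp upstream of the start, nearer to the edge of the window than to the gene. All of them are paired, and the summit lay across the interval from the named gene. It was inside the partner his-57 at his-58, and past the far end of the partner gene at the rest. Over all 28 genes with a pooled candidate, 12 had the summit between the starts of their own pair and 16 had it elsewhere or were in no pair. The 28 genes shared 20 regions.

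By type, peaks were at 2 of 17 H2A genes, 1 of 16 H2B genes, 2 of 15 H3 genes, 3 of 16 H4 genes and 1 of 5 H3.3 or H3.3-like genes. Of all protein-coding genes, 0.946% had one. H2A and H2B genes share the same peak at his-61/his-62, and H3 and H4 genes share those at his-31/his-32 and his-60/his-59, so the counts by type are not independent. Pooled candidates were at 4 of 17 H2A, 7 of 16 H2B, 6 of 15 H3 and 8 of 16 H4 genes. They were also at 2 of 5 H3.3 or H3.3-like genes and at his-24, and at neither of the short genes. Of all protein-coding genes, 35.7% had a candidate, and no difference between types was tested.

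Among the clusters, 3 of 14 had a peak. The 13 genes from his-16 to his-42 on chromosome II had 2 pooled candidates, at his-15 and his-42, and no peak. The clusters from his-47 to his-45 on chromosome IV, his-50 to his-53 on chromosome V and his-28 to his-18 on chromosome V, with 4, 6 and 8 genes, had no pooled candidate. The 4 genes from his-4 to his-1 and the 3 genes from his-35 to his-37 all had a candidate and none had a peak. The candidates of these 2 clusters were uneven between replicates. Each ranked higher in replicate 2 than in replicate 1, where his-2 had none.

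Many histone intervals are copies of each other. The 31 pairs held 21 distinct intervals, and 16 pairs had an interval identical to that of another pair. The 4 pairs his-51/his-52, his-54/his-53, his-21/his-22 and his-20/his-19 shared 1 sequence. As a measure, the share of 36-base words that occur once in the genome, on either strand, was taken for each start window. Its median was 23.3% over the 72 histone genes and 100% over all protein-coding genes. It ranged from 81.1% to 100% at the 9 genes with a peak, with a median of 87.4%, and its median was 70.2% at the 19 genes with a candidate and no peak and 1.63% at the 44 genes with no pooled candidate.

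Windows under 10% unique gave no pooled candidate at any of 28 histone genes, and none at any of the 253 protein-coding genes in that range, which include them. From 10% to 50% unique, 4 of 12 histone genes had a candidate, 33.3%, where all protein-coding genes had 7.48%. From 50% to 90% it was 17 of 22, 77.3%, where all had 23.1%, and above 90% it was 7 of 10, 70%, where all had 38.3%. Peaks were at 6 of the 22 genes in the first of these upper ranges, 27.3%, where all protein-coding genes there had 0.609%, and at 3 of the 10 in the other, 30%, where all had 1.01%. In each range above 10%, the share of histone genes with a candidate was above that of all protein-coding genes. Genes of a pair can share a region, so the genes in a range are not separate observations. The 4 genes from 10% to 50% were his-15, his-56, his-58 and his-66. Their summits lay 695 to 919 bp upstream, outside the intervals between starts, in regions 70.7% to 100% unique. How the authors treated reads that map to several places is not given in the sources used here, so absence of a region at a repeated interval cannot be told apart from reads that could not be placed.

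**Figure D3:**
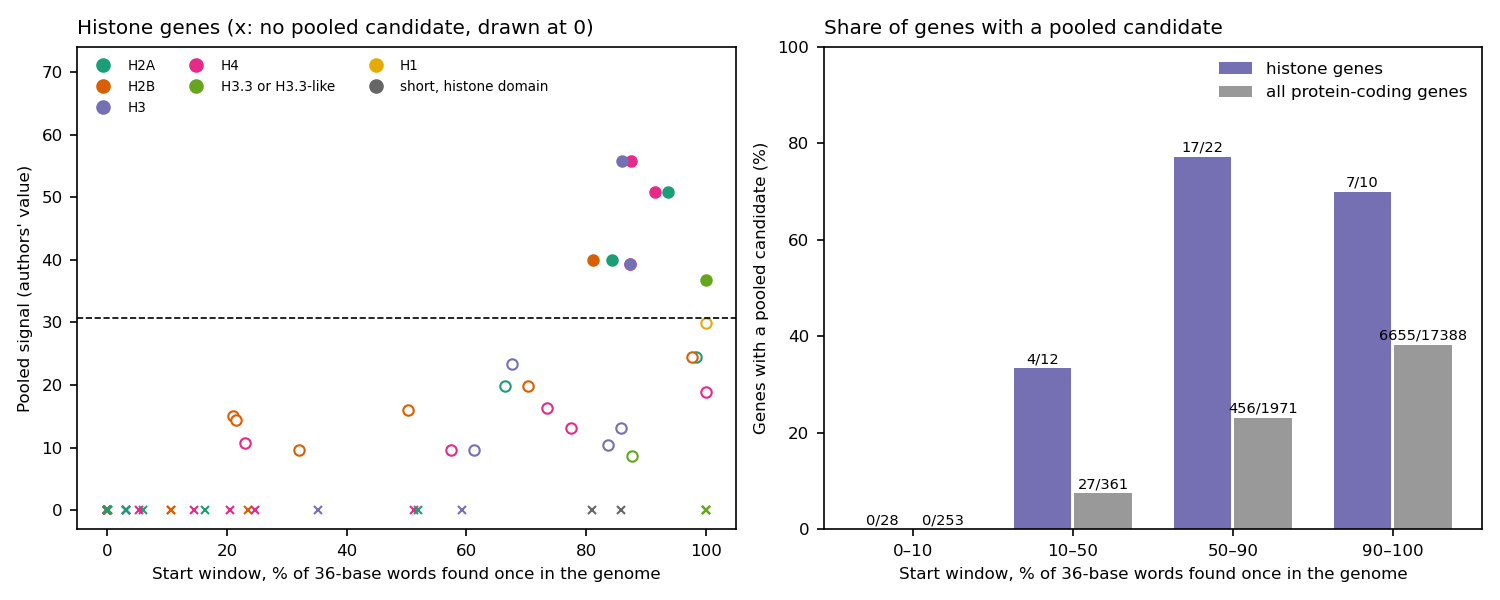
Left, pooled signal (y axis, authors' value) against the percentage of 36-base words of the start window found once in the genome (x axis) for the 72 histone genes, with filled points for genes with a peak, open points for candidates and crosses at 0 for genes with none; the dashed line is the lowest thresholded signal. Right, the percentage of genes with a pooled candidate by range of uniqueness, with counts above the bars: no histone gene under 10% had one, and 17 of 22 had one between 50% and 90%.

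Regions were also counted between the starts. In 20 of the 31 pairs under 50% of the words between the starts were unique (from 0% to 16.1%), and none of these had a region there in any of the 3 lists. In the other 11 pairs 79.4% to 100% of the words were unique, and of these 6 had a pooled candidate and 4 a peak, with 7 in the replicate 1 list and 6 in the replicate 2 list. Over all 31 pairs the pooled candidates made 19.4%, beside 27% of all head-to-head pairs of protein-coding genes. The 31 include the 20 repeated pairs without a region. The share over all head-to-head pairs with unique intervals was not computed, so the counts over the 11 pairs have no background. The 5 pairs with a unique interval and no pooled region in it were his-63/his-64, his-8/his-7, his-35/his-41, his-2/his-1 and his-38/his-40.

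The letters GGACACAT, with both strands searched, split these 11 intervals in the same way as the pooled list. All 6 intervals with a pooled candidate held GGACAC and also the longer GGACACAT. Of the 5 without a pooled candidate, his-63/his-64 held GGACAC once and not GGACACAT, and the other 4 held neither. The split did not hold for the replicate 1 list, which had a region of signal 5.57 between his-38 and his-40, an interval without the letters. his-31/his-32, shown above, held GGACACAT on each side of its midpoint, centred 43.5 bp left and 41.5 bp right of it. All 20 of the repeated intervals held GGACAC too, and 14 of them held GGACACAT, so the letters did not separate intervals with a region from repeated ones without. These letters were noticed in the printed intervals and counted in the same intervals, so the match is a description and not a test.

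**Figure D4:**
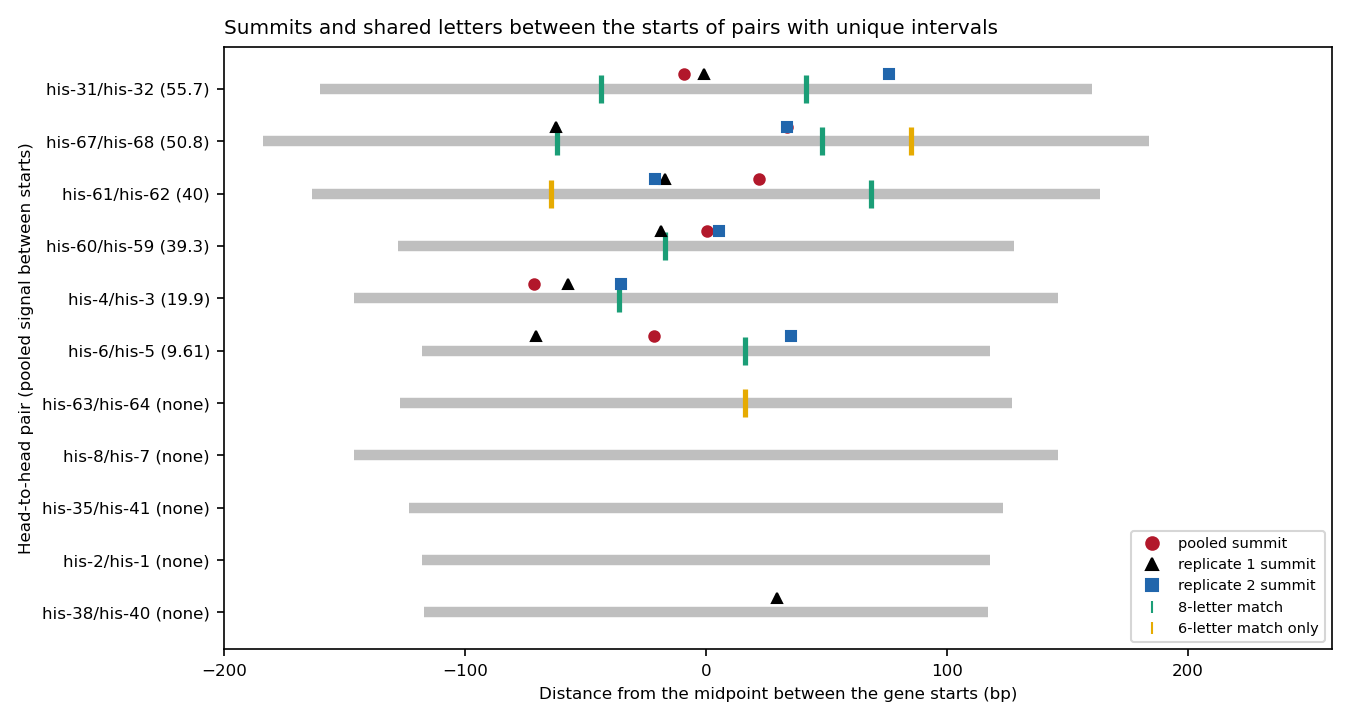
The 11 head-to-head pairs with largely unique intervals, as grey bars from start to start by distance from the midpoint (x axis, bp), ordered by pooled signal, which stands after each name. Green ticks mark the 8-letter match described in the text, yellow ticks the 6-letter match alone, and circles, triangles and squares mark pooled, replicate 1 and replicate 2 summits. The 6 pairs with a pooled summit all have a green tick, and the lower 5 have none, though his-38/his-40 among these has a replicate 1 summit.

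The same letters were common near histone genes in general. In promoters, taken as 250 bases before to 50 after each start, 59 of 72 histone genes held GGACAC, 81.9%, against 1247 of all 19973, 6.24%. GGACACAT was in 43 histone promoters, 59.7%, against 157 of all, 0.786%. The promoters of a pair overlap, so 1 match can count for both genes. As the 31 pairs held only 21 distinct intervals, these counts are not of separate occurrences. All 9 genes with a peak, which share 5 peaks, held GGACAC and 8 held GGACACAT. Among other protein-coding genes, 114 promoters held GGACACAT, and 2 of these genes had a peak, 1.75%, and 46 a pooled candidate, 40.4%. In the 300 bases centred on the summit, GGACAC was in 50 of the 249 peaks, 20.1%, of which 5 were those at histone genes. It was in 7.44% of the pooled candidates. At histone genes, 9 of the 20 pooled regions held GGACAC around the summit. They were the 5 peaks and the candidates of his-24, his-37, his-4/his-3 and his-6/his-5. At his-72 the match was GGACAC without GGACACAT, centred 134 bp from the summit. At the other regions with GGACAC the nearest match was centred 12 to 47 bp from the summit. The signals of the 9 ran from 9.61 to 55.7, beside 8.67 to 24.5 for the 11 without GGACAC. The letters were picked by reading the intervals of his-31/his-32, his-61/his-62, his-60/his-59 and his-4/his-3, whose regions are among the 9. The counts at peaks and these signals therefore reuse the data behind the choice, and are a description and not a test.

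The other letters were counted in the same promoters, so here too the counts are not of separate occurrences. TATAAA was in 65.3% of histone promoters against 37.9% of all promoters, and in 4 of the 9 promoters with a peak. Where it pointed toward a paired gene from between the starts, as at 34 of 62 genes, its first base was 56 to 68 bp upstream of the annotated start at 30 of them. Most annotated starts of histone genes are coding starts, so these are not distances to the transcription start. For the same reason, promoter windows of histone genes may be placed differently from those of other genes. CCAAT was in 54.2% against 45.5%, and in 5 of the 9. GAGAGA, the letters of a GAGA repeat, was in 45.8% against 21.8%, and in 4 of the 9. AGGTCA was in 2 histone promoters, those of his-31 and his-32, 2.78%, against 8.27% of all promoters. In the 300 bases centred on the summit it was in 18 of the 249 peaks, 7.23%, beside 8.20% of the pooled candidates. CTGCGTCT was in those of his-67 and his-68 alone and in 3.54% of all promoters, and CACGTG was in 1 histone promoter against 5.82% of all. ATGCAAAT and CGCGAAA were in none, with 2.86% and 3.78% over all promoters.

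A 6 bp stem beginning GG with a loop of 4 bases, within 300 bp after the coding end, was found at 56 of the 72 genes, 77.8%, all of them core genes. Over the 19965 protein-coding genes with a RefSeq coding model, which include these, 103 had it, 0.516%. It was at all 15 H3 genes, 15 of 16 H4, 15 of 16 H2B and 11 of 17 H2A genes, and at none of the H3.3, H1 or short genes. No gene had the stem with a loop beginning TT, so any loop letters were allowed after the data had been seen. Of the 9 genes with a peak, 7 had the stem-loop and his-68 and his-72 did not, while 49 of the 63 genes without a peak had it. An intron within the coding sequence was annotated at 8 histone genes, among them his-72, his-24, his-35, his-41 and his-37.

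The replicate lists were also read on their own. In replicate 1, 29 of 72 histone genes had a candidate, 40.3%, where all protein-coding genes had 37%, and in replicate 2 it was 28, 38.9%, where all had 35.7%. Both replicates had one at 24 histone genes, 33.3%, where all protein-coding genes had 17.6%. When the 249 best regions of a replicate stood in for the thresholded list, 9 histone genes had one in replicate 1, 12.5% where all had 0.941%, and 9 in replicate 2, 12.5% where all had 0.796%, and 7 genes were the same in both. In replicate 2 the region at his-35/his-41 ranked among the 249 best and that at his-61/his-62, at rank 295, did not. Medians over histone genes with a candidate were 10.02 in replicate 1 and 12.5 in replicate 2, beside 7.22 and 6.04 over all protein-coding genes with one. When the strongest region of each replicate in a start window was taken, histone genes gave 17 distinct pairs of regions, with a Spearman's rho of 0.74 between the replicate signals, beside 0.22 over the 3084 distinct pairs at protein-coding genes. Over pairs that overlapped by at least 1 bp it was 0.69 over 16 pairs, without his-71, beside 0.28 over 2043. The 17 pairs include those at the 5 peaks, which were chosen for agreement between these same replicates. Peaks were at 12.5% of histone genes and 0.946% of all protein-coding genes, so the rho values do not compare reproducibility on equal terms. The pairs share libraries, and the values are a description. At his-6/his-5 the regions overlapped, but the replicate 1 summit was inside his-5 and the replicate 2 summit between the starts.

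**Figure D5:**
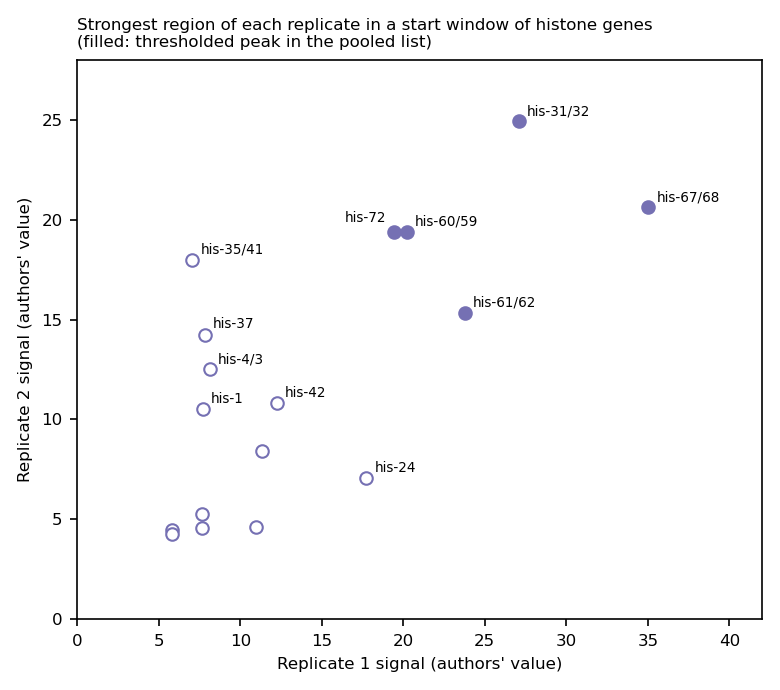
Signal in replicate 1 (x axis) against replicate 2 (y axis), both the authors' values, for the 17 distinct pairs of strongest regions in the start windows of histone genes with a candidate in both replicates; filled points have a thresholded peak. The 5 filled points lie at 19.4 or more in replicate 1 and at 15.4 or more in replicate 2, and his-24 and his-35/his-41 rank far higher in 1 replicate than in the other.

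A list of genes related to the his- genes had no peak. It held 11 histones with other names, such as the H2A.Z gene htz-1, the centromeric H3 gene hcp-3 and the hil linker histones, and 14 annotated genes of histone supply, such as the stem-loop binding protein gene cdl-1, chaperone genes and subunits of the FACT complex. Pooled candidates were at 6 of the 11 and 12 of the 14, and none of the 25 had a peak, where 35.7% and 0.946% of all protein-coding genes had one. The strongest candidates were at unc-85, an ASF1 histone chaperone gene, with 24.4, at spt-16 of FACT with 22.3, at lin-53, a gene for a histone-binding RbAp protein, with 21.5, at emb-5, the SPT6 gene, with 21.4 and at hcp-3 with 20.8. cdl-1 had 16.4 and htz-1 8.92.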

How the data were processed

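Chromatin from whole mixed-stage embryos of strain OP318 was sequenced in 2 biological replicates. The authors deposited, on ce11, a candidate list per replicate, a candidate list from both replicates and a thresholded list chosen by the irreproducible discovery rate, per the notes deposited beside the lists. Signal is the authors' value per region, computed against a control; −log10 q is also the authors' value, and its highest values are capped, so regions were ranked by signal. Aligner, caller, read length and the treatment of repeated sequence are not given in the sources used here. Lists on ce10 and the control were not analysed here.

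Regions were joined to gene starts of Ensembl release 115 (WBcel235, the same assembly as ce11) with Python 3.11.15 and numpy 2.4.6, and the code was tested on simulated data. Symbols came from RefSeq by WormBase ID (72 of 72 matched), since Ensembl gave 14 symbols to 36 members. lsm-10 and lsm-11 of the supply list had no match. Gene lengths of 69 of the 72 members are multiples of 3, so most starts are coding starts. There is 1 group, so no test was run. The members and lists were chosen with earlier results of these data known. Named were all members with a pooled candidate, all that are not core types, members of pairs with a peak, and members of the supply list with a peak; the supply genes named were chosen after their values were seen, as were other names and the GGACAC letters, the loop pattern and the ranges of uniqueness. Alternatives were other windows, transcript starts, overlap, stricter peaks, single replicates, other distances and word lengths.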

Additional observations from a re-analysis of the deposited data

How the results depend on the processing

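Of 32 alternatives over 7 results, 30 stayed within 1.5 times the reported value. Counted once per peak, the 9 genes with a peak became 5, and with the summit required between the starts of the gene's own pair, or the gene in no pair, a setting chosen after seeing the data, the 28 genes with a pooled candidate became 17. Genes with a peak ranged from 8 to 10 under other windows, starts, overlap and a stricter list, and were 9 in each replicate alone. Genes with a pooled candidate ranged from 20 to 35 with the narrower and wider windows. The share of all protein-coding genes in those windows is not given, so these counts have no background. In the list of replicate 1 alone 29 genes had a candidate, and in that of replicate 2 alone 28. The median pooled signal ranged from 17.6 to 27.2. Pairs with a peak were 4, and 3 without replicate 1. Clusters with a peak stayed at 3, and the median uniqueness was 25.3% with words of 50 bases and 28.7% with 100. No paired analysis was possible because there is 1 group and no test.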
